A study of Rhagoletis pomonella with 50 samples.

Results

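The 100 features described here are those whose RNA level, in the central nervous system (CNS) of Rhagoletis pomonella pupae, stood highest in the middle of the cold period relative to its start and its end. A feature is a gene model of the annotation the authors counted on, identified by the word gene and a number. Levels were taken as CPM, expected counts per 1000000 of the library total, and averaged within each host and month on a log2 scale with a pseudocount of 0.5. A feature was eligible if its mean CPM was at least 2 and its 6-month mean differed from its 2-month mean by less than 0.5 (log2) in apple and in hawthorn, which held for 6177 of the 29399 features listed. The score of a feature was the mean of months 3, 4 and 5 minus the higher of months 2 and 6, taken in the host where this difference was smaller. The 100 highest scores define the members, so they were selected on their measured levels in all 10 groups, and the middle-month rise is what chose them. It is described without a test and supports nothing.

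R. pomonella, the apple maggot fly, has an ancestral population whose larvae feed in hawthorn fruit and a derived one in apple. Pupae from both hosts, from infested fruit collected in 1 year at 1 Illinois site, were held for 10 days at 24 °C with 14 h of light and 10 h of darkness, then in the cold at 3.5 °C and 95% humidity. Their CNS were dissected monthly from 2 to 6 months in the cold. Each host and month had 5 libraries, each from a pool of 10 CNS, giving 10 groups and 50 libraries. The groups therefore differ in larval host and in months in the cold, while these conditions and the pupal stage are shared by all, and no group without cold is part of the comparison. Hawthorn replicates 2 and 4 of 4 months stood apart from the other libraries and were left out by the rule. Results rest on the other 48 libraries unless stated, with 3 libraries in hawthorn at 4 months and 5 in every other group.

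Diapause is a hormonally programmed arrest of development. In diapausing insect pupae the brain and its neurosecretory cells stand upstream of the steroid hormone ecdysone, whose release ends the arrest and starts adult development. A chilling period generally brings pupae to the point where they can resume development in warmth, so the months in the cold span a change of state without visible morphological change. Apple flies emerge earlier in the season than hawthorn flies, which makes the timing of diapause a trait that separates the 2 hosts. None of the members could be tied to these processes, because the identifiers are not paired with gene names in the deposited data and of the 29399 identifiers 0 occur in the available RefSeq table of this species. Members are therefore named by identifier only, no sequence or position is given, and the CNS label could not be checked against marker genes.

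Library totals ran from 8718271 to 30540959 expected counts, with a median of 14615586. The labels give pools, not named cultures or litters, so p-values measure the spread between pools. The libraries were spread over 6 lanes, and 6 libraries of 6 months (replicates 3 to 5 of each host) carried a single index where all others carried dual indices. A slope of level on transcript length also differed between libraries, with medians of -0.001 in apple months 3 to 5 and -0.003 in apple months 2 and 6, against 0.053 and -0.034 in hawthorn. The part of lane, index type and length slope in the middle-month difference was not tested beyond the values given with the results.

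The members rose by little. In apple the mean of months 3 to 5 exceeded the mean of months 2 and 6 by a median of 0.16 (log2) over the 100 members, a ratio of 1.12, with a range of 0.03 to 0.69. In hawthorn the median was 0.17, a ratio of 1.13, with a range of 0.03 to 0.88. Over the eligible features the same difference had a median of -0.16 in apple and 0.03 in hawthorn. Fewer cells of one type and less RNA per cell cannot be told apart in pools of whole CNS, here and in all results that follow.

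Scaling mattered for the level of this difference, because the eligible features as a group fell in the middle months of apple when CPM was taken on library totals. With TMM scaling (trimmed mean of M values, which sets a typical feature to no change) the eligible medians were -0.01 in both hosts and the member medians were 0.31 in apple and 0.13 in hawthorn. The direction of the medians was thus the same under both scalings, with a larger rise in apple and a smaller one in hawthorn under TMM. Both scalings use the libraries that chose the members, and under TMM 74 members scored above 0.

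**Figure D1:**
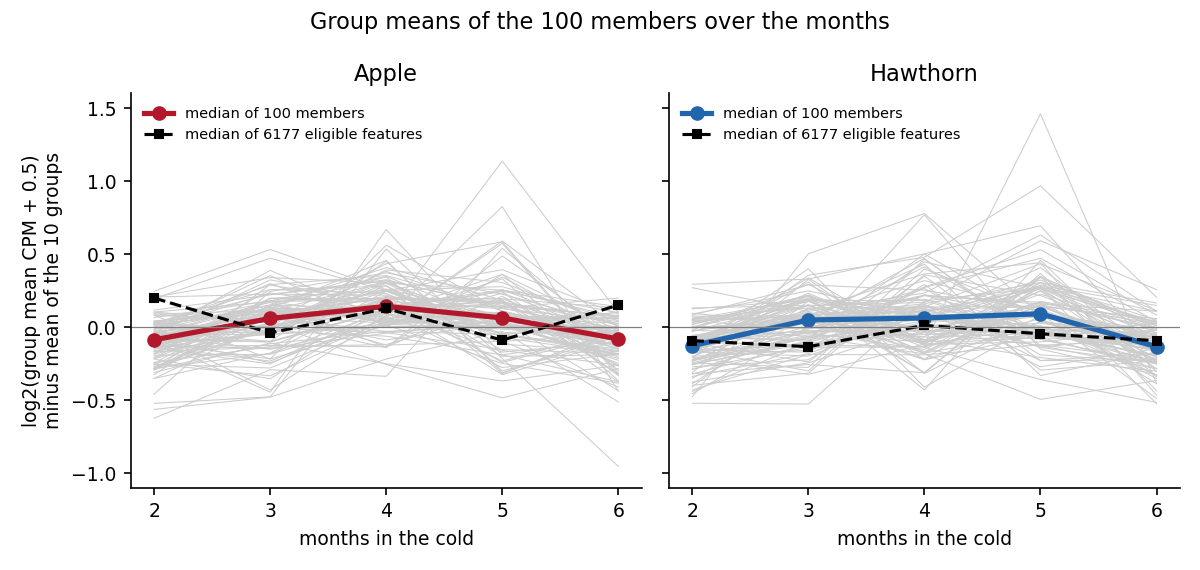
Group means of the members at 2 to 6 months in the cold, as log2(group mean CPM + 0.5) minus the mean of the 10 groups, for apple (left) and hawthorn (right). Grey lines are single members, the coloured line is their median and the dashed black line is the median of the 6177 eligible features. The member medians lie below 0 at 2 and 6 months and above 0 at 3 to 5 months in both hosts, which the rule fixes, while single members scatter widely around them.

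The plot of group means by month shows a low plateau, not a sharp peak. In apple the median member stood at -0.09, 0.06, 0.14, 0.06 and -0.08 (log2, relative to its mean over the groups) from month 2 to month 6. In hawthorn the corresponding medians were -0.13, 0.05, 0.06, 0.09 and -0.13. On library totals the apple median was highest at 4 months and the hawthorn median at 5 months. The eligible features followed another course in apple, with 0.20, -0.04, 0.13, -0.09 and 0.15. At 4 months in apple the member median was thus close to the eligible one, and the gap was wider in the adjacent months. With TMM-scaled CPM, averaged over hosts, 78 members and 48.4% of the eligible features stood lower at 4 months than in the adjacent months. The apple high at 4 months is therefore not read as a peak of the members.

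The members did not share 1 month of highest level. In apple 28 had their highest mean in month 3, 44 in month 4 and 28 in month 5, and in hawthorn the numbers were 25, 33 and 42. The month was the same in both hosts for 38 members, namely month 3 for 11, month 4 for 15 and month 5 for 12. A like share of the eligible features was not counted, so nothing is read from the 38. All 3 middle means lay above both end means in 42 members in apple, in 33 in hawthorn and in 14 in both hosts. Those 14 were all the eligible features with this pattern, 0.227% of them, and since the rule used the same contrast nothing is read from that share.

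Scores were low and ended without a gap. The highest was 0.28, the median 0.06, and 5 members reached 0.2, 29 reached 0.1 and 57 reached 0.05. The 99th and 100th members scored 0.0178 and 0.0160, and the next features outside scored 0.0159 and 0.0156. In all, 142 of the 6177 eligible features scored above 0 and the median eligible feature scored -0.28. The same calculation for features lowest in the middle months, their mean below the lower of the 2 ends in both hosts, gave 577 above 0, a highest score of 0.63 and a 100th score of 0.11. With TMM-scaled CPM the numbers above 0 were 319 for a rise and 459 for a dip, so the imbalance between the directions was smaller.

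The rise was smaller than the spread between pools of the same group in most members. That spread is of single libraries and is not the error of a difference between means. Since the rule chose on these levels, a peak in mid diapause was not shown feature by feature. The members are called by the rule that chose them. The pooled standard deviation (SD) within groups, of log2(CPM + 0.5), had a median of 0.35 over the members in apple and 0.33 in hawthorn, while the eligible features had 0.27 and 0.25. The difference between months 3 to 5 and the higher end had a median of 0.10 in apple and 0.09 in hawthorn. It exceeded the SD in 1 member in apple, in 5 in hawthorn and in 0 in both hosts. The apple one was gene10229, with a difference of 0.28 against an SD of 0.27. The highest hawthorn difference, 0.88 against an SD of 0.80, was that of gene7231, whose apple difference was 0.08 against 0.36. Both were singled out after their values were seen.

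**Figure D2:**
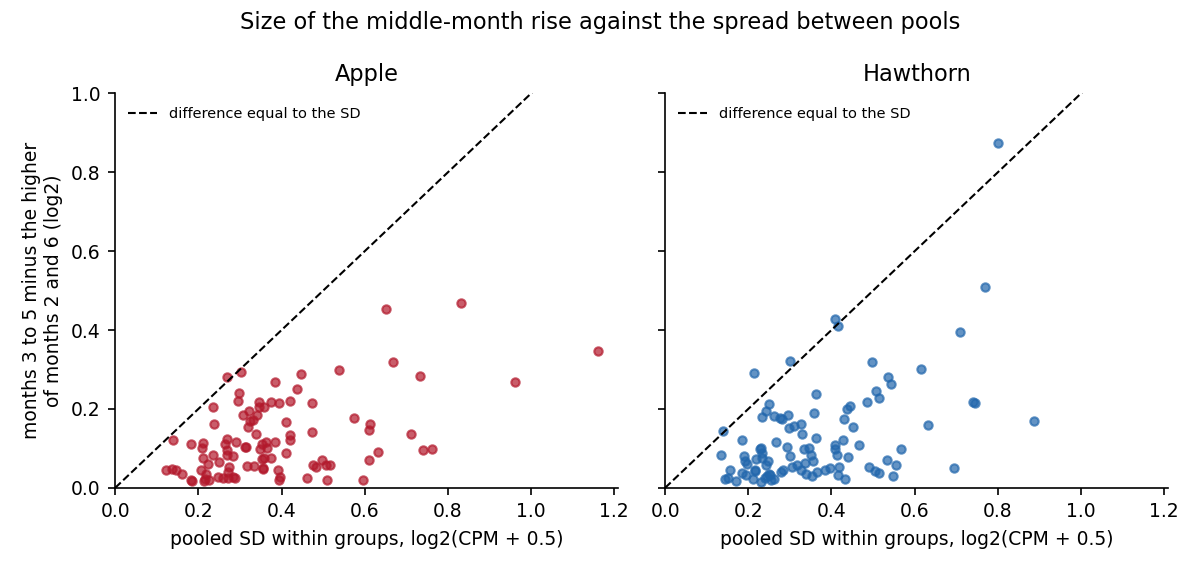
Mean of months 3 to 5 minus the higher of months 2 and 6 (log2, vertical) against the pooled SD within groups of log2(CPM + 0.5) (horizontal), for the 100 members in apple and in hawthorn; each point is a member. Points above the dashed line have a difference larger than the SD, 1 in apple and 5 in hawthorn.

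Single libraries overlapped accordingly. No member had all 15 apple libraries of months 3 to 5 above all 10 of months 2 and 6, and none had all 13 hawthorn middle libraries above the 10 end libraries; this pattern occurred in 0.0% of the eligible features in either host. The median member had 3 of 15 apple middle libraries and 2 of 13 hawthorn middle libraries above every end library. The most in any member were 11 and 8, and 10 members in each host had none. Set against the median end library, a median of 11 of 15 apple middle libraries (range 6 to 15) and 9 of 13 hawthorn middle libraries (range 5 to 13) were higher. The eligible features had medians of 4 and 7.

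Taken as a set, the members separated the libraries better than singly. The median deviation of the 100 members from their own means ran from -0.15 to 0.23 (log2) over the apple middle libraries, with a median of 0.15, and from -0.26 to 0.07, with a median of -0.10, over the apple end libraries. In hawthorn the middle libraries ran from -0.04 to 0.20 with a median of 0.08, and the end libraries from -0.31 to 0.01 with a median of -0.08. In apple 10 of 15 middle libraries and in hawthorn 11 of 13 lay above the highest end library of the same host. Since these libraries chose the members, the separation is part of the definition.

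**Figure D3:**
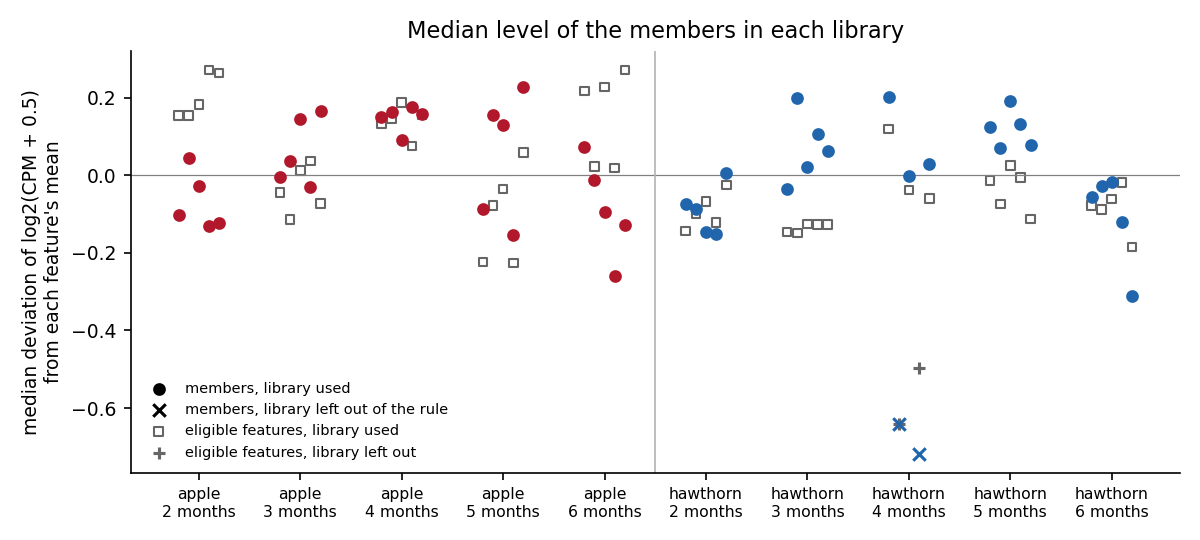
Median deviation of log2(CPM + 0.5) from each feature's mean, per library, for the 100 members (filled circles, red apple, blue hawthorn) and the eligible features (open grey squares), by host and month. The middle months lie above the end months for the members in both hosts with overlap, and the 2 hawthorn libraries of 4 months left out of the rule (crosses for members) lie below all others.

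The 2 left-out libraries were measured at 4 months in hawthorn but took no part in the choice. They are set here against the hawthorn means of 2 and 6 months, which the rule did use, so the comparison is a description and not independent of the choice. In replicate 2, 29 members lay above both hawthorn end means and 65 below both, where 21.3% and 70.5% of the eligible features did so. In replicate 4, 26 lay above and 70 below, against 30.8% and 61.4%. With TMM scaling 45 members were above both ends in replicate 2 (eligible 43.5%) and 48 below both (46.8%), and in replicate 4 there were 32 above (44.6%) and 63 below (48.03%). On library totals and with TMM, the share of members above both ends was higher than that of the eligible features in replicate 2 and lower in replicate 4. For comparison, the 3 hawthorn libraries of 4 months that the rule used had 75, 48 and 53 members above both ends, against 60.9%, 42.6% and 38.5% of the eligible features.

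Within a lane, 4 sets of libraries held both middle and end months of 1 host. The median member was higher in the middle months by 0.09 (log2) in lane 3 and 0.03 in lane 6 in apple, and by 0.24 in lane 1 and 0.03 in lane 2 in hawthorn. Members above 0 numbered 65 and 55 in the apple lanes, where 25.03% and 32.1% of the eligible features were above 0. In the hawthorn lanes they numbered 84 and 51, against 57.2% and 52.2%. Lane 3 held 1 middle library and lane 6 held 1 end library of apple, so these values rest on single libraries. In lane 2 of hawthorn the member count was close to that of the eligible features. The libraries of all 4 sets chose the members on middle against end months, so an excess within a lane is partly built in.

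The members were less abundant than the eligible features. Their median level was 8.09 CPM, with a range of 2.01 to 3794, against a median of 17.4 CPM. Of the members, 39 lay between 2 and 5 CPM, where 19.2% of the eligible features lay, 28 between 5 and 20 CPM (34.8%), and 33 at 20 CPM or more (46.0%). The within-group SD fell over these classes from 0.45 to 0.34 and 0.24, and was 0.35, 0.28 and 0.21 in the eligible features of the same classes. Members therefore had a larger spread than the eligible features in each class. A large spread makes extreme scores more likely, so this is partly built into the choice. The classes are broad and match abundance only roughly. The median score fell as well, from 0.08 to 0.05 and 0.05.

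High values of single libraries were more frequent in the members than in the eligible features. A high middle library raises the score, so for the middle months this excess is partly built into the choice. The comparison was not matched on abundance, and members were more often of low abundance. In 12 members some middle library reached at least 3 times the median of the other libraries of its group, which happened in 2.61% of the eligible features. An end library did so in 6 members, against 1.51%. Of the 20 highest scores, 4 had such a middle library. The 14 cases fell in 11 libraries, and apple replicate 5 of 5 months held the most, with 3. Most of the 12 fell below 0 without some library, among them gene23307 (-0.08), gene1330 (-0.09), gene7401 (-0.11) and gene20208 (-0.18). In gene9041, at -0.10, the library left out was hawthorn replicate 3 of 2 months, not a middle one. Such falls were common among all members, of which only 26 scored above 0 whichever library was left out. The falls in the 12 are therefore not read as a result of their high libraries. Without any 1 library gene24950 and gene3115, both in the 12, scored at least 0.0175 and 0.0152. With group medians they scored 0.10 and -0.06.

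The highest score belonged to gene23307, a feature with 1 transcript of 1568 bp. In apple its levels were 2.94, 1.88, 3.10, 3.18 and 2.36 CPM at 2 months, 2.93, 1.88, 0.461, 3.95 and 18.0 CPM at 5 months, and 2.40, 1.49, 2.48, 1.67 and 1.84 CPM at 6 months. The apple rise rested on replicate 5 of 5 months, since the other 14 apple middle libraries ranged up to 3.95 CPM and overlapped the end months. Without that library the score was -0.08, and with group medians in place of means it was -0.13. In hawthorn the middle libraries ranged from 2.02 to 5.54 CPM with a median of 3.02, and the end libraries from 0.997 to 3.04 CPM with a median of 1.83. The hawthorn difference from the higher end was 0.43 against an SD of 0.41.

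The second score was that of gene1330 (790 bp). In apple at 5 months it measured 11.2, 2.20, 0.927, 0.705 and 1.41 CPM, so that replicate 1 alone lay far above the rest. The apple middle libraries had a median of 2.20 CPM and the end libraries one of 2.25 CPM. Without replicate 1 of 5 months the score was -0.09, and with group medians -0.32. In hawthorn its levels at 5 months were 10.8, 6.97, 7.93, 7.03 and 2.61 CPM, a mean of 7.07 ± 2.95 (SD, n = 5), against 2.85 ± 1.84 at 2 months and 3.96 ± 0.841 at 6 months. Of these 5 libraries, 4 lay above every hawthorn library of 2 and 6 months, where the highest was 5.60 CPM.

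The score of gene24950 (1763 bp) came next, and it also had a high apple library. At 4 months in apple it measured 3.49, 0.477, 2.12, 15.2 and 2.12 CPM, and the high value of replicate 4 set the group mean of 4.68 ± 5.97 (SD, n = 5). Apple levels were 1.99 ± 0.478 at 2 months and 1.34 ± 1.28 at 6 months. Its score, 0.21, was set by hawthorn, where the difference from the higher end was smaller than the 0.47 of apple. The lowest score on leaving out single libraries was 0.02, without hawthorn replicate 3 of 2 months, and with group medians the score was 0.10.

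One member, gene22841 (1679 bp, 9th by score), stayed among the 100 under every setting of the rule tried, and is named for that after its values were seen. In apple it measured 6.39 ± 1.07, 8.44 ± 0.844, 7.57 ± 2.43, 7.30 ± 2.29 and 6.84 ± 1.30 CPM (SD, n = 5) from month 2 to month 6. In hawthorn the levels were 5.62 ± 1.17, 6.48 ± 1.35, 6.53 ± 1.44 (n = 3), 6.24 ± 1.17 and 5.50 ± 1.22 CPM. The groups overlapped throughout: apple end libraries ranged from 5.07 to 8.14 CPM and apple middle libraries from 4.18 to 11.3 CPM. The apple libraries of 3 months, at 8.48, 9.37, 7.33, 7.89 and 9.12 CPM, had the highest mean and the smallest SD of the 5 apple groups. The score was 0.17 and differences from the higher end were 0.17 (SD 0.32) in apple and 0.18 (SD 0.28) in hawthorn, each below the SD.

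**Figure D4:**
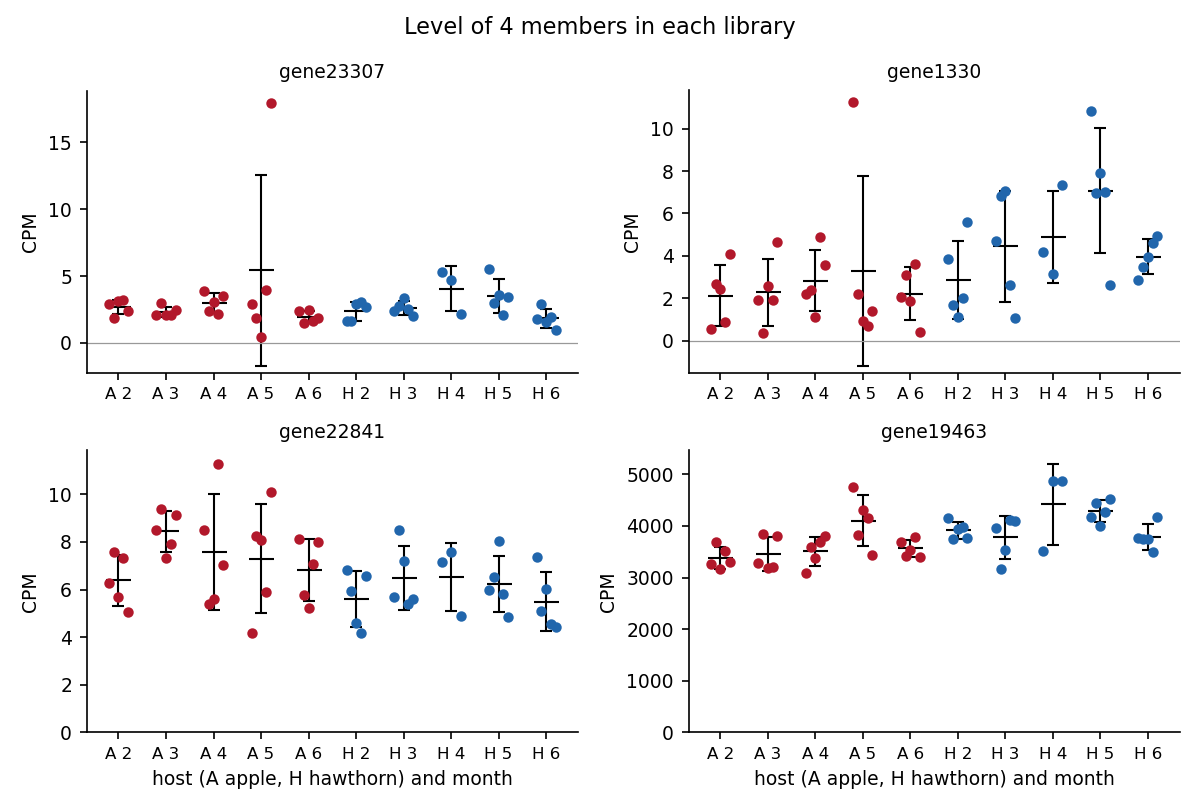
CPM of gene23307, gene1330, gene22841 and gene19463 in each of the 48 libraries by host (A apple, H hawthorn) and months in the cold, with the group mean and SD (horizontal marks and whiskers). In gene23307 and gene1330 a single apple library of 5 months, at 18.0 and 11.2 CPM, carries the apple rise, while gene22841 and gene19463 show small shifts of overlapping groups.

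The 2 most abundant members had a small rise. Their within-group SD was 0.12 in apple and 0.13 in hawthorn for gene19463, and 0.29 and 0.19 for gene2510. gene19463 (789 bp) measured 3689 ± 463 CPM (SD, n = 15) in the apple middle months and 3475 ± 204 CPM (n = 10) in the apple end months. In hawthorn it measured 4118 ± 509 CPM (n = 13) and 3851 ± 209 CPM (n = 10). Its highest apple group was 5 months, with 4760, 3831, 4312, 4149 and 3444 CPM, 4 of which lay above the highest apple end library at 3776 CPM. The other, gene2510 (2820 bp), measured 1891 ± 383 and 1682 ± 299 CPM in the apple middle and end months, and 2270 ± 335 and 2063 ± 248 CPM in hawthorn. The score of gene19463 was 0.04, with 0.002 under TMM scaling, 0.05 with group medians and at least 0.02 without any 1 library. That of gene2510 was 0.03, with 0.03 under TMM scaling and -0.008 with group medians. Without hawthorn replicate 1 of 4 months it was -0.04. The 2 left-out libraries went opposite ways for this pair, with 5547 and 8463 CPM of gene19463 and 528 and 350 CPM of gene2510.

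The members did not vary as a block. For each pair of members the correlation of the within-group deviations over the 48 libraries was taken as a description; libraries share depth and lane. Over the 4950 pairs the median Pearson correlation was 0.06, with quartiles of -0.11 and 0.24, against 0.08, -0.10 and 0.26 for eligible pairs. A correlation above 0.7 was found in 0.707% of member pairs and 0.433% of eligible pairs.

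Their transcripts were of ordinary length but more often ambiguous to count. Median length was 1676 bp (quartiles 1067 and 2702, range 302 to 14440), against 1802 bp (1143 and 2760) in the eligible features. More than 1 transcript was listed for 26% of the members and 34.2% of the eligible features. A count that was not whole (off a whole number by more than 0.001) in most libraries, as arises when a read matches several features and is divided among them, was found in 56% of the members and 28.6% of the eligible features. The level of such members is uncertain where near-identical copies share reads. In 0 members was the identifier number next to that of another member.

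How the members differed between the hosts was asked with the mean over the 5 months, which the rule did not score. The score takes the higher end and the smaller host on library totals, so this comparison is not wholly independent of the choice. edgeR's quasi-likelihood test, with Benjamini-Hochberg adjustment over the 14342 features that passed the count filter (all 100 members among them), called 23 members at an adjusted p under 0.05. Of these 3 were higher and 20 lower in apple. Among all tested features 22.2% were called, 10.5% higher and 11.6% lower, and among the eligible features 27.3%, 14.9% and 12.4%. The share called was near the background, and lower calls were more frequent among the members than in either background. Absolute fold changes of the called members ran from 0.19 to 0.94 (log2) with a median of 0.34, and 16 had the same sign at all 5 months.

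The tilt toward hawthorn extended to members that were not called. The log2 fold change of apple minus hawthorn was below 0 in 72 members and in 45.7% of the eligible features, with medians of -0.10 and 0.02. On CPM of library totals the eligible features as a whole moved up in apple by a median of 0.15, and 41 members (median 0.03) against 21.4% of the eligible features were below 0. Relative to the eligible features the members were thus lower in apple under both scalings, but the sign of their own median flipped with the scaling. The part of the choice of members in this tilt was not tested.

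**Figure D5:**
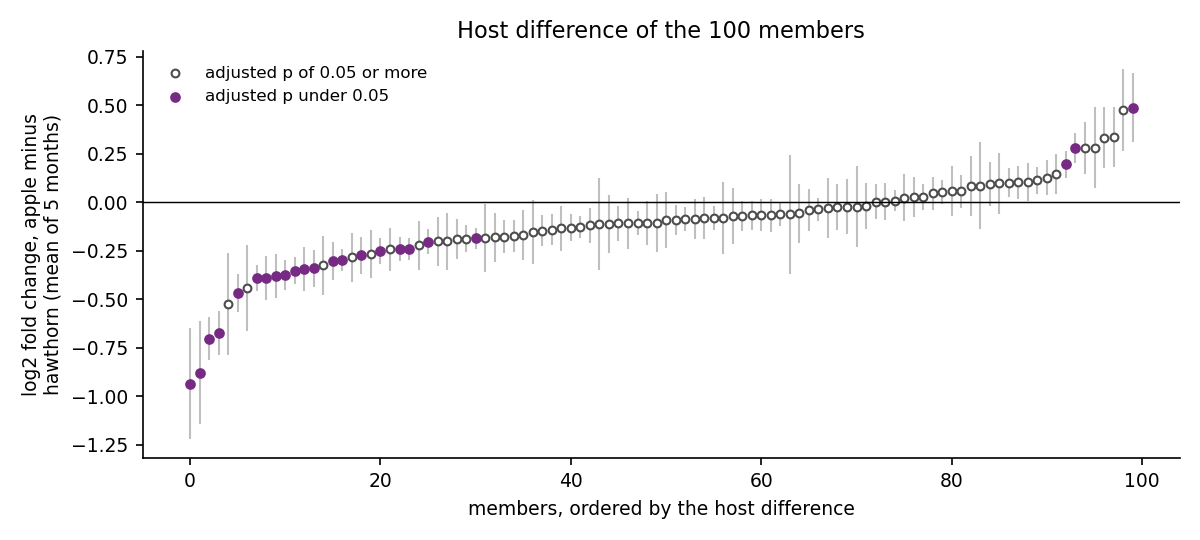
Log2 fold change of apple minus hawthorn, averaged over the 5 months, for the 100 members in order of size, with its SE as grey bars. Filled points are the 23 members with an edgeR adjusted p under 0.05, 20 of them below 0 and 3 above.

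The 2 called members with the lowest fold changes were gene1330 and gene24950, which also ranked 2 and 3 by score. gene1330 averaged 2.55 ± 2.22 CPM (SD, n = 25) in apple and 4.62 ± 2.49 CPM (n = 23) in hawthorn, a log2 fold change of -0.94 (SE 0.287, edgeR adjusted p = 0.0160). Without apple replicate 1 of 5 months the fold change was -1.23, and without the single-index libraries it was -0.82 and not called (adjusted p = 0.1005). gene24950 averaged 2.53 ± 2.83 and 4.02 ± 1.89 CPM, with -0.88 (SE 0.267, adjusted p = 0.0150), and was not called with all 50 libraries (-0.76, adjusted p = 0.0518). The ranges of the hosts overlapped in both members.

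The higher calls with the largest fold changes were gene9041 and gene7377. gene9041 (606 bp) averaged 4.79 ± 2.22 CPM in apple and 3.07 ± 1.18 CPM in hawthorn, with 0.49 (SE 0.178, edgeR adjusted p = 0.0428); 24 of the 48 fits without 1 library ended the call. gene7377 (1278 bp) averaged 16.2 ± 3.17 and 12.1 ± 1.70 CPM, with 0.28 (SE 0.0757, adjusted p = 0.00601). At 2 months its apple libraries, at 13.3 to 18.1 CPM, all lay above its hawthorn libraries, at 10.3 to 13.1 CPM. The same held at 3 months, at 13.3 to 18.6 CPM against 9.16 to 12.6 CPM. At 4, 5 and 6 months the hosts overlapped. These CPM are of library totals, on which the eligible features also stood higher in apple. Their medians at 2 months were 0.20 in apple and -0.09 in hawthorn (log2, relative to the mean over the groups). At 3 months they were -0.04 and -0.13. The part of this offset in the separation was not tested.

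Both of the most abundant members were lower in apple. gene19463 had a log2 fold change of -0.30 (SE 0.0568, edgeR adjusted p = 0.000210) and gene2510 had -0.39 (SE 0.0675, adjusted p = 4.99e-05). The smallest adjusted p was that of gene20777, at -0.70 (SE 0.111, adjusted p = 1.4e-05), which is singled out here after its values were seen. Its group means ran from 1.82 to 2.08 (log2(CPM + 0.5)) in apple and from 2.32 to 2.78 in hawthorn, so the 5 hawthorn means all lay above the 5 apple means. The calls comprised 6 of 39 members below 5 CPM, 2 of 28 between 5 and 20 CPM and 15 of 33 at 20 CPM or more, where 19.1%, 27.5% and 30.6% of the eligible features were called.

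Host and lane overlapped little: lane 7 at 6 months was the only lane that held both hosts at the same month. With lane as a term in the edgeR fit 0 members were called, the smallest adjusted p being 0.0779, and 15 members had an unadjusted p under 0.05, as did 14.9% of all tested features; DESeq2 was run without lane only. The called members then had a median fold change in their original direction of 0.24 with a median SE of 0.156, against 0.34 and 0.0949 without lane, and 22 of 23 had the same sign. gene9041 was the exception, at -0.01. The fold change with lane was -0.16 for gene2510 (adjusted p = 0.521), 0.09 for gene7377 (0.806), -0.60 for gene24950 (0.622), -0.29 for gene19463 (0.147) and -1.44 for gene1330 (0.141). In lane 7 at 6 months, with 4 apple and 3 hawthorn libraries, all 23 had the sign of the full comparison. The full comparison includes these libraries, so that agreement is partly built in. In that lane 72 members and 44.7% of the eligible features were lower in apple.

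Within the middle months the question was whether members stood higher early or late, which the mean of months 3 to 5 leaves free. In apple 2 members rose from 3 to 5 months and 0 fell by edgeR's test, where 4.91% of all tested features were called (2.22% higher, 2.69% lower) and 4.48% of the eligible features (1.99% and 2.49%). In hawthorn 0 rose and 1 fell, where 6.05% were called (3.65% higher, 2.41% lower) and 3.29% of the eligible features (1.68% and 1.6%). The shares of members called were below these backgrounds.

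gene3115 (1700 bp) was the larger of the apple pair. At 3 months it measured 1.06, 2.14, 1.52, 0.812 and 0.761 CPM, and at 5 months 2.16, 4.05, 3.47, 7.59 and 6.26 CPM, so that the 5 later libraries all lay above the earlier ones. The log2 fold change was 1.96 (SE 0.445, edgeR adjusted p = 0.00794). Its level at 6 months in apple was 2.04 ± 1.01 CPM (SD, n = 5), back within the range of 2 months at 1.81 ± 0.830 CPM. In hawthorn it went from 1.14 ± 0.452 CPM at 3 months to 2.36 ± 1.42 CPM at 5 months, a fold change of 0.92 (SE 0.455) that was not called (adjusted p = 0.230).

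gene3282 (1068 bp) measured 62.5, 77.7, 72.2, 72.7 and 64.2 CPM at 3 months in apple and 100.3, 70.7, 115, 119 and 73.2 CPM at 5 months. In this case 3 of 5 later libraries lay above all earlier ones. Its fold change was 0.54 (SE 0.155, edgeR adjusted p = 0.0334), and 7 of the 48 fits without 1 library ended the call (replicates 1, 3, 4 and 5 of 3 months and 1, 3 and 4 of 5 months in apple, with an adjusted p of up to 0.154). It also ended with all 50 libraries (0.52, adjusted p = 0.0764) and with only the groups compared (0.53, 0.150). In hawthorn its levels were 84.7 ± 13.7 and 78.9 ± 3.68 CPM (SD, n = 5), with a fold change of -0.24 (SE 0.154, adjusted p = 0.373). The difference between the hosts in this change was 0.78 (SE 0.218, adjusted p = 0.0565) and was not called.

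gene12114 (4 transcripts, mean length 2847 bp) was the one that fell in hawthorn. It measured 132, 238, 218, 198 and 188 CPM at 3 months, 105, 114 and 113 CPM at 4 months, and 153, 130, 177, 164 and 134 CPM at 5 months. The level thus dropped at 4 months below every library of 3 and 5 months and was partly restored, so the 3 middle months of this member did not form 1 peak. The change from 3 to 5 months was -0.50 (log2, SE 0.134, edgeR adjusted p = 0.0170). Without hawthorn replicate 2 or 3 of 3 months it was not called (adjusted p = 0.0762 and 0.0630), nor with lane as a term (0.292) or all 50 libraries (0.129). In apple the same months stood at 173 ± 27.0, 159 ± 13.8 and 158 ± 43.1 CPM (SD, n = 5). The left-out hawthorn libraries of 4 months were lower still, at 28.1 and 33.7 CPM.

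The change from 3 to 5 months differed between hosts in 0 members by edgeR's adjusted p, with 11 at an unadjusted p under 0.05 (16.4% of all tested features), and in 1 by DESeq2. Of all tested features 1.17% were called (0.328% with a larger change in apple, 0.844% with a smaller one), and of the eligible features 1.8% (0.55% and 1.25%). Member fold changes of this difference ran from -1.12 to 1.70 (log2) with a median SE of 0.33.

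Month 4 against the mean of months 3 and 5, averaged over hosts, was called higher in 2 members and lower in 1 by edgeR, against 4.94% of all tested features (3.77% higher, 1.18% lower) and 7.54% of the eligible features (6.44% and 1.1%). Because hawthorn at 4 months has fewer libraries, this contrast is nearly but not wholly independent of the rule. Fold changes were above 0 in 25 members and in 54.6% of the eligible features under edgeR's scaling, and in 56 members and 78.9% of the eligible features on library totals. The members stood lower at 4 months than the eligible features under both, and which side of 0 most of them fell on depended on the scaling.

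gene5400 (812 bp) stood higher at 4 months than at 3 and 5 months. In apple it measured 4.60, 4.10, 5.09, 2.92 and 3.37 CPM at 3 months, 6.46, 7.25, 7.33, 7.86 and 17.4 CPM at 4 months, and 3.66, 3.43, 7.19, 5.79 and 4.39 CPM at 5 months. The 4-month libraries lay above all of 3 months and overlapped those of 5 months. Libraries of 2 and 6 months reached 7.30 and 6.64 CPM in apple, overlapping those of 4 months, and 7.45 and 6.92 CPM in hawthorn. The score of gene5400 was -0.05 with group medians and -0.03 without apple replicate 1 of 2 months. In hawthorn the 3 libraries of 4 months, at 7.48, 9.94 and 12.5 CPM, all lay above those of 3 months (4.15 to 6.76 CPM) and 5 months (4.13 to 6.07 CPM). The left-out hawthorn libraries of 4 months measured 7.56 and 5.60 CPM. The log2 fold change was 0.89 (SE 0.179, edgeR adjusted p = 0.00193), and 0.71 without apple replicate 5 of 4 months, and the call held in every fit tried.

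gene325 (1163 bp) had the same shape at a lower level. In apple it measured 4.20, 5.72, 5.80, 3.62 and 8.02 CPM at 4 months, against 3.58 ± 0.436 CPM at 3 months and 3.05 ± 0.703 CPM at 5 months (SD, n = 5). In hawthorn the 4-month libraries, at 3.81, 6.13 and 7.11 CPM, averaged 5.68 ± 1.70 CPM, against 3.63 ± 0.634 and 3.99 ± 0.608 CPM. The fold change was 0.53 (SE 0.150, edgeR adjusted p = 0.0293), and the call ended without apple replicate 5 (adjusted p = 0.106), hawthorn replicate 3 (0.0994) or hawthorn replicate 5 (0.167) of 4 months. It also ended with lane (fold change 0.57), the length slope (0.42) or the replicate number (0.48) as a term, at adjusted p-values up to 0.0596. The lower call was gene12114, at -0.45 (SE 0.0929, adjusted p = 0.00245), whose hawthorn values are given with its change from 3 to 5 months.

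A readout the rule did not use is the isoform-weighted transcript length, which changes when the share of a gene's longer and shorter isoforms changes. It varied, with at least 10 expected counts in every library used, in 2943 features, 25 of them members. By limma on log2 length, months 3 to 5 against months 2 and 6, 0 members and 0.0% of the features were called. At an unadjusted p under 0.05 there were 2 members and 230 of all. The members with the smallest p were gene12599, with a change of 0.0068 (log2, SE 0.0032), and gene14145, with 0.07 (SE 0.0333), each at a limma adjusted p of 0.627.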

How the data were processed

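Stranded mRNA libraries of pupal CNS pools were mapped to the R. zephyria genome with STAR and counted with RSEM, per the submitters' processing notes; versions, genome build and annotation: not given in the sources used here. The deposited expected counts (estimated counts that need not be whole, per the file headers) were the basis of all levels and tests; 13.4% to 20.9% of features per library were not whole, and rounding to whole numbers moved no library total by more than 0.000438%. TPM, as deposited (RSEM output per the file headers), served as an alternative scale for the rule. The length, in bp, is per the file headers. Reads matching several features are divided by RSEM, so levels of near-identical copies are uncertain.

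CPM used library totals. Counts were filtered (filterByExpr, minimum count 10, minimum total 15), scaled by TMM and fitted with 1 mean per group in edgeR 4.0.16 (robust quasi-likelihood, in the form used before edgeR 4); SE values derive from the fold change and F statistic. Isoform length was tested with limma 3.58.1. Adjusted p-values are Benjamini-Hochberg over all features tested, called under 0.05. Software was R 4.3.3 and DESeq2 1.42.0, and Python 3.11.15 with pandas 2.3.3, numpy 2.4.6 and matplotlib 3.10.9.

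Named members are the 2 highest scores, the 2 highest mean CPM and, per test, up to 2 called members with the highest and 2 with the lowest fold change (mean log2 CPM at least 1). Others are marked in the text. Members, lists and rules were chosen with earlier results of these data known. Gene and marker lists were not used because 0 identifiers could be named. Lane and index type were read from the deposited data. A hawthorn library of 6 months marked B was taken as replicate 3. Alternatives were other scalings, filters, pseudocounts and terms, DESeq2, all 50 libraries, and leaving out each library. The edgeR and limma steps were tested on simulated data.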

Additional observations from a re-analysis of the deposited data

Results flagged for a closer look

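For the 13 members with values given by library, 117 groups of 4 or more libraries were examined, with 9 further groups for the median over the 100 members. In 8 of these 126 groups, all of single members, 1 library lay far from the nearest of the others relative to the range of its group. Chance alone would give about 1 in 20 groups if members had been picked without regard to their values. Most were named for score, fold change or abundance, which single high libraries can raise. The count is therefore not read against that rate. In gene1330 the library was replicate 1 of apple at 5 months (11.2 CPM, next 2.20). In gene23307 it was replicate 5 of apple at 5 months (18.0 CPM, next 3.95). In gene24950 it was replicate 4 of apple at 4 months (15.2 CPM, next 3.49). These libraries are in the middle months and raise the score. gene5400 also had a high middle library, at 17.4 CPM in apple replicate 5 of 4 months, where the next was 7.86.

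The other 4 were in end months. They were gene24950 in apple at 6 months (3.55 CPM in replicate 2, next 1.06), gene2510 in apple at 6 months (2330 CPM in replicate 2, next 1702), gene3282 in apple at 6 months (87.6 CPM in replicate 4, next 76.4) and gene9041 in apple at 2 months (8.81 CPM in replicate 4, next 4.16). All 8 were apple libraries and high values. The cause was not tested.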

How the results depend on the processing

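Membership depended on the settings. Of the 100 members, 41 stayed with TMM-scaled CPM, 58 with TPM, 65 and 61 with a minimum mean CPM of 1 and 5, 66 with a limit of 0.25 on the end difference, 38 with group medians, 54 with all 50 libraries, 43 without the single-index libraries, 34 with the length slope taken out, and 70 to 96 when 1 library was left out; the fewest, 70, was without hawthorn replicate 3 of 6 months. Both other pseudocounts kept 96, a limit of 1 kept 93 and a mean of group means kept 100. In all leave-one-out settings 26 members scored above 0 and 15 stayed members. With group medians 55 scored above 0. The host call count was 21 to 24 on leaving out 1 library and 0 with lane as a term. For 5 against 3 months the count in apple was 1 with all 50 libraries, 1 with only the groups compared, 4 with DESeq2 and 1 to 6 without 1 library. In hawthorn it was 0 with all 50 libraries, 0 with lane, 2 with DESeq2 and 0 to 2 without 1 library. The host difference in this change was 1 with DESeq2 and 0 to 1 without 1 library. The 4-month count was 10 with all 50 libraries and 2 to 5 without 1 library. Isoform length gave 0 throughout. The host fold change of gene9041 was -0.012 with lane as a term. The cause was not tested. Of 678 values of named members under alternatives, 623 kept sign and call and 54 lost the call. Libraries of the same replicate number were little more alike than others. Over 207 same-number pairs the median r was 0.006 (36 over 0.1, range -0.30 to 0.31). Over 828 other pairs it was -0.007 (118 over 0.1, range -0.26 to 0.34). With the replicate block the counts were 24 for hosts, 2 in apple, 1 in hawthorn, 0 for their difference, 2 at 4 months and 0 for length. Low abundance limits the members: 39 lie under 5 CPM, where the median SD was 0.45.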
